A study of Mus musculus with 2 samples.

Results

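The miRNA genes described here carry symbols from Mir3000 to Mir3999, a range of numbers assigned late, since miRNA genes are numbered roughly in the order of their discovery. Members were the rows whose gene identifier maps in GENCODE M21 to such a symbol, with genes of an imprinted region of chromosome 12 left out. This rule uses no measured value, though it was set with earlier results of these data known, and it gave 70 of 1973 miRNA genes. The annotation holds 16 further genes of the same numbers (15 symbols) that have no row among those used here and were not analysed here, apart from the strand opposite to their antisense partners. The 2 libraries were made from total RNA of forebrain from B6NCrl mouse embryos at day 16.5, with no mutation or agent named, each from a pool of male and female embryos, 41 of them for replicate 2. Both belong to a single group without a second tissue, stage or treatment, and the labels give the 2 pools the same donor record, so their spread may be partly technical.

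A miRNA is cut from a hairpin of a longer transcript, by Drosha in the nucleus and then by Dicer in the cytoplasm, and its bases 2 to 8, the seed, pair with target mRNAs. A mirtron bypasses Drosha: its hairpin is a short spliced intron, so that the splice sites set the hairpin's ends. In a tailed mirtron only 1 end is a splice site and the other is trimmed. Conserved, abundant miRNAs were found and numbered first, and sequencing later added hairpins that are less abundant, restricted to certain cells or derived from introns and repeats.

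Several mature sequences are shown for members that are named in the results. The first set holds the most abundant member and 2 further members whose counts differed between the libraries. The sequences are from RefSeq (GRCm38.p6), which holds mature forms for 65 of the 70 members, with the seed in capitals.
miR-3099-3p: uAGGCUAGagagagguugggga
miR-3099-5p: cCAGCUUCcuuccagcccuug
miR-3080-3p: uCCUCGGGcaaagcgcuugaca
miR-3080-5p: uGAAGCGCcuguucuuggau
miR-3081-3p: uUGCGCUCcgaucucugagcugg
miR-3081-5p: gACUGGAGcuuggagcggugagc
The counts are per gene and do not separate the arms of a hairpin.

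The next set shows the hairpins that contain a whole annotated intron (GENCODE M21, GRCm38, minus strand of each chromosome), which fills Mir3102 and Mir3547 and stops short of both ends of Mir3062. Capitals mark the first and last letters of the intron, which are GU and AG in all 3.
Mir3102, chr7:100882306-100882409: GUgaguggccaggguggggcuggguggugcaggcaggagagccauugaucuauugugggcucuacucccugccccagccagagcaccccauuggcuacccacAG
Mir3547, chr17:25245551-25245638: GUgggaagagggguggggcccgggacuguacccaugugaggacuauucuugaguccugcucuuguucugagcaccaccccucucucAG
Mir3062, chr11:68990574-68990678: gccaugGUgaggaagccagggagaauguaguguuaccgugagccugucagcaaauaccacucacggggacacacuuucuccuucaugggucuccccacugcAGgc

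Of the 70 members, 29 had at least 5 gene-strand counts in both libraries, which is called detected here. A further 21 had a count but fell below 5 in a library, and 20 had none in either. Together the members held 4835 of 5060112 gene-strand counts in replicate 1 and 3144 of 4158686 in replicate 2. That is 0.0956% (exact Clopper-Pearson 95% interval 0.0929% to 0.0983%) and 0.0756% (0.0730% to 0.0783%), or 0.0856% ± 0.0141 (SD, n = 2). The intervals, as all given here, measure the counting error of reads alone. PCR copies of a molecule were not told apart, so the intervals can be too narrow for molecules. The intervals of the 2 libraries do not overlap, on totals without further scaling. A single gene, Mir3099, held 45.7% of the members' counts in replicate 1 and 41.0% in replicate 2. Such intervals were not computed for other number ranges. In the test described below, 45.3% of all tested genes differed between the libraries.

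Detection was set beside that of genes with other numbers, all outside the same chromosome 12 region. It was 41.4% for the members, 61.5% of 429 genes numbered below 1000, 32.1% of 78 genes from 1000 to below 3000 and 15.0% of 421 genes numbered 4000 or above. Of 838 genes with another kind of symbol, 1.31% were detected, and of all 1973 rows 22.2% were. The members thus lay between the earliest numbers and the latest, above the 1000 to below 3000 range. A further contrast was in level, given as counts per 1000000 gene-strand counts (CPM). A read is 1 small RNA and the annotated mature forms span 18 to 25 bases, so CPM was compared between genes without division by length. Among detected genes the median was 8.20 CPM for the members, 195 CPM for numbers below 1000, 11.9 CPM for 1000 to below 3000 and 2.73 CPM for 4000 or above. Only 2 members reached 100 CPM, against 158 genes numbered below 1000 and 0 numbered 4000 or above. Over all 70 members the median log2(CPM + 1) was 0.75, beside 4.08 for numbers below 1000, 0.16 for 1000 to below 3000, 0.14 for 4000 or above and 0 for all rows.

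**Figure D1:**
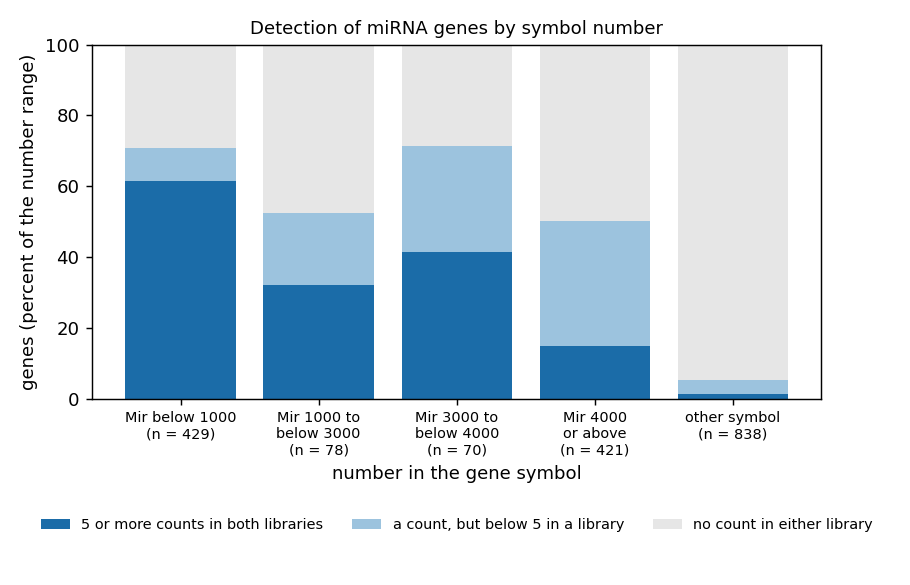
Share of miRNA genes (percent, vertical axis) by the number in their symbol (horizontal axis, with the number of genes), split into those with at least 5 gene-strand counts in both libraries, those with a count but fewer than 5 in a library, and those with none. Genes numbered 3000 to below 4000 reach 41.4% in the first class, between 61.5% for numbers below 1000 and 15.0% for 4000 or above.

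These shares depend on which reads could be placed. Reads that map to several loci are totalled apart from the genes (40.5% of all reads in replicate 1 and 43.3% in replicate 2), so a gene that shares sequence with another can be undercounted. A stretch of 22 bases is shared with another annotated miRNA gene by 12 members (17.1%), by 39.6% of genes numbered below 1000, 8.97% of those from 1000 to below 3000 and 4.99% of those numbered 4000 or above. Among genes that share none, 28 of 58 members were detected (48.3%), beside 73.4%, 35.2% and 15.3% in those 3 ranges. The order of the ranges was the same.

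Mir3099 was the most abundant member. It lies in an intron of Usp29 at chr7:6803587-6803670 (ENSMUSG00000092815.1), a paternally expressed imprinted gene next to Peg3. It had 2208 counts in replicate 1 and 1288 in replicate 2, or 436 CPM (exact 95% interval 418 to 455) and 309.7 CPM (293 to 327). Its mean of 373 ± 89.5 CPM (SD, n = 2) placed it at rank 127 of the 1973 genes. Mir3099 alone held 45.7% of the members' counts in replicate 1 and 41.0% in replicate 2. The non-member genes nearest to it in mean level were Mir671 at 375 ± 26.5 CPM and the Hox cluster gene Mir10a at 356 ± 119.7 CPM. The level of Mir3099 differed from either by less than the spread of its own replicates.

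Mir3074-1 came next, at 148 CPM in replicate 1 and 129 CPM in replicate 2, from 751 and 537 counts. Its log2 ratio between the libraries was -0.06 ± 0.08 (counting SE), and the exact binomial test described below did not separate them (adjusted p = 0.657). The gene lies in an intron of Fancc at chr13:63301199-63301283 (ENSMUSG00000092741.1), on the strand opposite to Mir24-1, so that a single stretch of DNA encodes a hairpin in each direction. The mature forms are shown with the 20 bases in capitals over which they are exact complements.
miR-3074-5p: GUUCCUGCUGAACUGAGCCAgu
miR-24-3p: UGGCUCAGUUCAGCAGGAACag
Mir3074-1 shares 22 bases with Mir24-1, Mir24-2 and Mir3074-2, and the whole of miR-3074-5p stands in the hairpin of Mir3074-2 as well. A full-length read of it therefore fits at least 2 loci, and the level of Mir3074-1 is uncertain for that reason. The strand opposite to Mir3074-1, where Mir24-1 lies, had 40 reads in replicate 1 (5.06% of the reads of both strands) and 29 in replicate 2 (5.12%). The complement of miR-3074-5p, with 20 bases of miR-24-3p, stands at the loci of both Mir24-1 and Mir24-2. Reads of miR-24-3p can therefore fit both and be totalled apart, so the levels of Mir24-1 and Mir3074-1 cannot be compared by these counts. Over all members the opposite strand held 0.963% and 0.914% of the reads, and over all genes 1.91% and 1.70%.

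Antisense pairing also marks 4 other genes of these numbers, each seen through its partner. Mir3065 lies opposite to Mir338, a miRNA of maturing oligodendrocytes, which had 1471 and 1195 gene-strand counts but 2 and 0 reads on the other strand. Mir3107 lies opposite to the erythroid Mir486, with 125 and 75 gene-strand counts and 4 and 2 on the other strand. Mir3074-2 lies opposite to Mir24-2, with 408 and 335 gene-strand counts and 3 and 0 on the other strand. The counts of Mir24-2 can be too low, as reads that also fit Mir24-1 are totalled apart. Mir3073b lies opposite to the member Mir3073a, where neither strand had a read in either library. At all 4 loci the reads on the later-numbered strand numbered at most 4 a library. At Mir3074-2 this sets no limit, because a full-length read of miR-3074-5p fits Mir3074-1 as well and would be totalled apart from the genes. Whether mature reads of Mir3065, Mir3107 or Mir3073b fit a further locus or strand was not examined, so no limit is drawn there either.

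A group of 5 members followed with mean levels between 30 and 40 CPM, and neighbours in this order did not differ beyond the spread of the replicates. Mir3102, which fills an intron of Arhgef17, had 47.2 and 32.7 CPM in replicates 1 and 2. Mir3059, in an intron of Mgat4c at chr10:101772692-101772772, had 38.1 and 37.8 CPM, the closest agreement of the group. Mir3475, on the X chromosome at chrX:140310948-140311012 with no annotated host on its strand, had 38.9 and 30.3 CPM. Mir3080, in an intron of the transcriptional coregulator gene Tcf20 at chr15:82959218-82959296, had 38.7 and 25.0 CPM. Mir3093 had 33.8 and 27.9 CPM. The other 22 detected members ranged from 1.59 CPM for Mir3085 to 22.5 CPM for Mir3061.

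**Figure D2:**
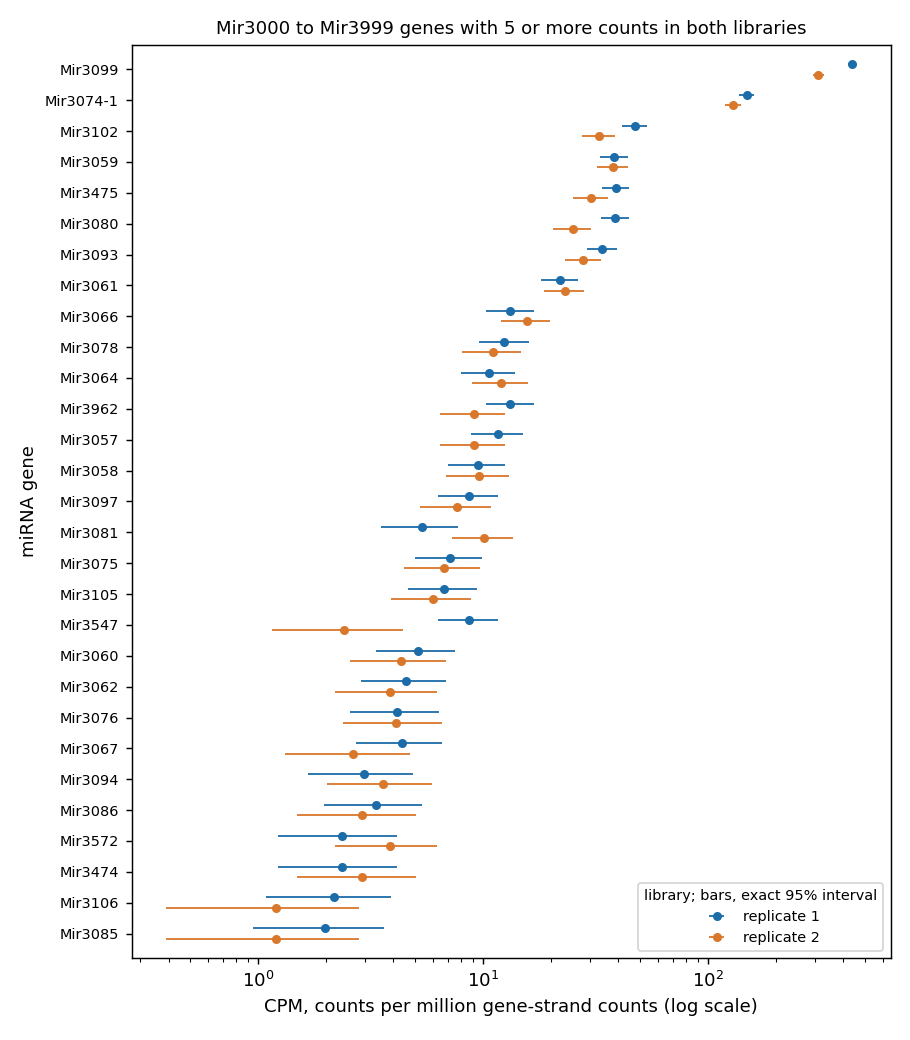
Level of each of the 29 detected members (vertical axis) in CPM on a log scale (horizontal axis), as a point per library with its exact 95% interval for counting error. Mir3099 and Mir3074-1 stand above 100 CPM in both libraries, 11 members have means from 10 to under 100 CPM and 16 lie below 10 CPM, where the intervals of the libraries mostly overlap.

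Some members lie beside miRNA genes with defined neural roles. Mir3093 is transcribed on the same strand as Mir9-1, a regulator of neural progenitors, with starts 427 bases apart in an intron of the non-coding host Gm3764 (chr3:88215171-88215257). Mir3093 had 171 counts in replicate 1 and 116 in replicate 2, or 30.8 ± 4.17 CPM (SD, n = 2), while Mir9-1 has no row among those used here. Mir3078 lies in an exon of Mir124a-1hg, the host of the neuronal Mir124a-1, with starts 528 bases apart (chr14:64591185-64591271). It had 63 and 46 counts, or 11.8 ± 0.982 CPM, beside 25 and 15 counts, or 4.27 ± 0.943 CPM, for Mir124a-1. These levels cannot be set against each other directly, because Mir124a-1 has close copies elsewhere and Mir3078 shares 22 bases with none. Both members by neural miRNA hosts were detected, and they are the only 2 members whose annotated hosts on their own strand are all non-coding.

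Introns of protein-coding genes were the most frequent setting. Leaving aside hairpins at splice sites, 29 members lay inside such introns, of which 13 were detected and 9 had no count. These 29 held 75.5% of the members' counts in replicate 1 and 74.8% in replicate 2, most of it from Mir3099 and Mir3074-1. Mir3066, in an intron of Nol10 at chr12:17355392-17355474, had 67 counts in replicate 1 and 65 in replicate 2, or 13.2 and 15.6 CPM. Mir3058 in Nudt4, Mir3060 in Rnf215, Mir3067 in Smoc1 and Mir3086 in Hspa12a lay lower, with means of 9.55, 4.73, 3.50 and 3.12 CPM. Mir3081, in Boc, a hedgehog co-receptor, was at 7.72 ± 3.37 CPM (SD, n = 2). Mir3105, in the postsynaptic scaffold gene Shank2, was at 6.37 ± 0.5004 CPM. Mir3075, in Zmiz1, was at 6.92 ± 0.270 CPM, and Mir3106, in Csmd1, at 1.69 ± 0.687 CPM. The 18 members with no gene on their own strand had 3 detected genes, Mir3475, Mir3962 and Mir3085, and 9 genes without a count. Mir3962, at chr1:194822001-194822064, had 67 and 38 counts, or 13.2 and 9.14 CPM.

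Again leaving aside hairpins at splice sites, those that overlap exons of coding genes were detected in 4 of 9 cases. Mir3061, in the UTR of Ppp2ca, the catalytic subunit gene of protein phosphatase 2A, led them with 111 and 96 counts (22.5 ± 0.812 CPM). Its hairpin at chr11:52126746-52126836 had among the lowest predicted folding energies of the detected members, -0.72 kcal/mol per base. Mir3057, overlapping a coding exon of Apba3, followed at 10.4 ± 1.78 CPM. Mir3572 in Cnot3 and Mir3474 in Actr5 were at 3.11 ± 1.04 and 2.63 ± 0.363 CPM. Reads of such genes could include fragments of the host mRNA, and their part in the counts was not tested. The same holds for Mir3102, Mir3064, Mir3062 and Mir3076, detected hairpins at splice sites that also overlap an annotated exon of their host.

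**Figure D3:**
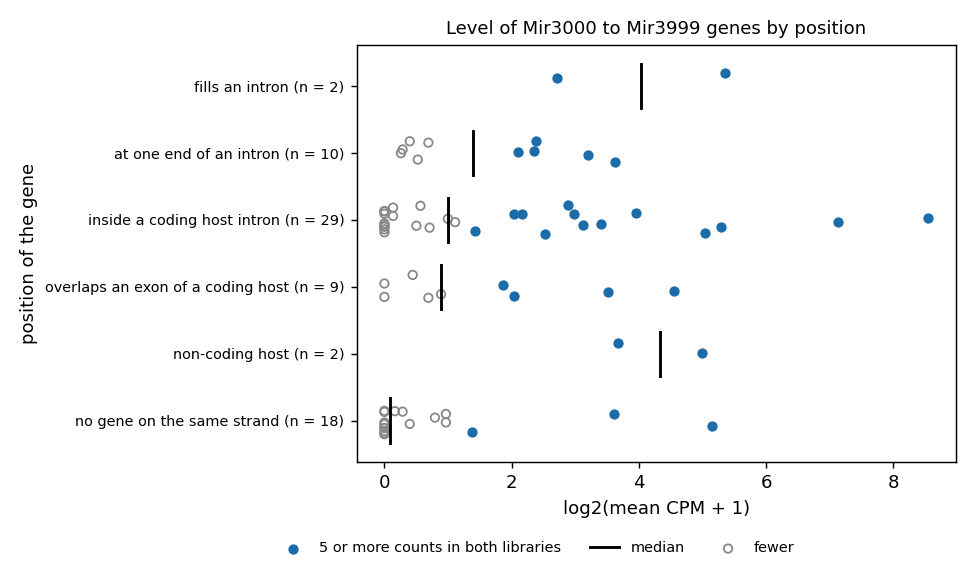
Mean level of all 70 members as log2(CPM + 1) (horizontal axis) by position relative to annotated genes (vertical axis, with the number of members). Filled points are detected members, open points have fewer counts and bars are medians. Mir3099 and Mir3074-1 are the highest points, inside coding host introns, while most of the 18 members without a gene on their strand lie at or near 0.

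An end at a splice site was found for 12 members. With a tolerance of 5 bases, Mir3102 and Mir3547 fill an intron from end to end, and 10 members reach an intron end on 1 side only. All 12 introns end in AG, and the first letters are GU in the 3 that lie within the hairpin. Mir3062 belongs to the 10 by the tolerance, although the 97-base intron of Pfas lies wholly within its 105-base hairpin. In the other 9, the hairpin sits at the 3′ end of an intron of 89 to 1875 bases. This is the arrangement of a tailed mirtron, read here from positions only.

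Both intron-filling members were detected. Mir3102, with 239 and 136 counts, is listed by RefSeq with 4 mature forms, since its hairpin carries an inner and an outer pair. Mir3547, in an intron of Baiap3, a gene of vesicle release, had 44 counts in replicate 1 and 10 in replicate 2, or 8.70 and 2.40 CPM. Of the 10 hairpins at 1 intron end, 5 were detected, and 0 of the 10 were without any count. Mir3064, in the RNA helicase gene Ddx5, led them at 11.3 ± 0.956 CPM. Mir3097 in Rgs12 was at 8.20 ± 0.708 CPM, Mir3062 at 4.20 ± 0.494, Mir3076 in Tkt at 4.12 ± 0.0440 and Mir3094 in Nfx1 at 3.29 ± 0.454 CPM. Hairpins with an end at a splice site made up 2.86% (filling) and 14.3% (1 end) of the members. Over all 1973 rows these shares were 1.17% and 9.58%. Among genes from 1000 to below 3000 they were 3.85% and 2.56%, with 3 of 3 and 1 of 2 detected. Among genes numbered 4000 or above they were 3.56% and 40.6%, with 3 of 15 and 29 of 171 detected. Below 1000, 1 gene of each kind was found, and both were detected.

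Seeds were mostly unshared. The 110 mature forms of 65 members carried 108 different seeds. A seed of 22 members recurred in another gene of the RefSeq table, and 10 of these members were detected. The pair within the detected members is Mir3064 and Mir3085, which both carry CUGGCUG although they lie on different chromosomes and on opposite arms of their hairpins.
miR-3064-5p: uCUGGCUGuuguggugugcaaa
miR-3085-3p: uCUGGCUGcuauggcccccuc
Mir3064 had 54 and 50 counts, and Mir3085 10 and 5. Of the other detected members, 5 share a seed with genes numbered 4000 or above, none of which exceeded a mean of 1.35 CPM, and 2 share one with a gene numbered below 3000. Mir3102 shares UGAGUGG with Mir702, at 70.3 ± 25.6 CPM, and both 5p forms open with GU, the letters that start an intron.
miR-3102-5p: gUGAGUGGccaggguggggcug
miR-702-5p: gUGAGUGGggugguuggcaug
Mir3475 shares AAUCAUG with the 3p arm of the sensory miRNA Mir96, at 96.4 ± 41.2 CPM.
miR-3475-5p: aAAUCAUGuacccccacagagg
miR-96-3p: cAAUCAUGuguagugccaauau
The longest run that these 3 pairs share is 8 bases each, so that little beyond the seed is common to them. Uridine opened 19 of 51 mature forms of detected members (37.3%), beside 41.3% of all 1738 mature forms in the table.

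Detection differed along the numbers. Of 14 members from 3470 to 3475, 2 were detected, Mir3474 and Mir3475, and 10 had no count. In the numbers 3057 to 3113, 24 of 46 were detected and 5 had no count. A stretch of 22 bases was shared with another miRNA gene by 8 of the 14 and by 4 of the 46. Mir3470b shares 22 bases with 61 other miRNA genes, Mir3471-1 and Mir3471-2 with 51 each and Mir3470a with 15. For these a count of 0 sets no limit on the level. Of the lettered Mir3473 genes, Mir3473g had 4 and 5 counts, Mir3473d 1 and 0, and the other 5 had none. The numbers 3547 to 3620 held 4 members, 2 of them detected, with 1 at 0. The numbers 3962 to 3971 held 6 members, of which 4 had no count and Mir3962 alone was detected, at 11.2 ± 2.90 CPM. No member of these last 2 ranges shares 22 bases with another annotated miRNA gene. The rest of the genome was not searched, and miR-3963, miR-3964 and miR-3965 are shorter, at 19, 20 and 19 bases. Whether their reads fit several loci was therefore not tested.

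In all, 10 of the 20 members without a count share 22 bases with another miRNA gene. For Mir3073a that gene is Mir3073b, on the other strand of the same DNA, so that reads there are not spread over loci by it. The other 10 share none, and for uniquely placed reads of those a count of 0 allows up to 0.593 CPM in replicate 1 and 0.721 CPM in replicate 2. They include Mir3063, in the UTR of Igf2bp1, and Mir3092, in an intron of Fndc3b. Predicted folding of the annotated hairpins differed little by detection. The median energy was -0.47 kcal/mol per base in the 29 detected members, -0.46 in the 21 with fewer counts and -0.43 in the 20 without any, with ranges that overlap widely. The median GC content was 53.4%, 52.9% and 52.3% in the same order.

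Differences between the libraries were tested per gene with a two-sided exact binomial test of both counts given their sum, over the 466 genes whose counts sum to 10 or more, after TMM scaling of the libraries (edgeR's trimmed mean of M values). It compares 2 libraries, not conditions, and its calls (adjusted p under 0.05) take reads as independent. Among all tested genes 45.3% were called, 23.4% higher in replicate 2 and 21.9% lower. Of 30 tested members, 5 were called, 4 lower in replicate 2 and 1 higher. Calls follow depth, and most members have few reads. With a summed count from 10 to below 100, 2 of 18 members and 9.58% of all genes were called. From 100 to below 1000 it was 2 of 10 members, beside 43.1%, and from 1000 it was 1 of 2, beside 77.9%. The median log2 ratio of the tested members was -0.04 and that of all tested genes 0.01. A ratio within 0.5 of 0 was found for 23 of the 30 members and for 320 of all 466 genes. With unscaled totals every log2 ratio is lower by 0.14, 67 of all tested genes are called higher and 155 lower (109 and 102 with TMM), and among the members Mir3074-1 joins those called lower. The 5 calls below kept their direction with either scaling.

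Mir3547 had the lowest log2 ratio of the called members, which was also the largest in size. Its 44 counts in replicate 1 and 10 in replicate 2 gave a log2 ratio of -1.66 ± 0.49 (counting SE), with an adjusted p of 0.000768 in the exact binomial test. Mir3080, at 196 and 104 counts, had -0.48 ± 0.17 with an adjusted p of 0.0124 by that exact test. Mir3102, at 239 and 136 counts, had -0.38 ± 0.15 with an adjusted p of 0.0282. Mir3099 had -0.35 ± 0.05 with an adjusted p of 1.3e-11. Both intron-filling members are thus among the 4 that were lower in replicate 2, beside 21.9% of all tested genes. Intron-filling genes with other numbers were not compared as a class, so this describes these members alone.

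Mir3081 was the single member called higher in replicate 2, with 27 counts in replicate 1 and 42 in replicate 2. Its log2 ratio was 1.06 ± 0.35 (counting SE), with an adjusted p of 0.00807 in the exact binomial test. Mir3095, in an intron of Lpar1, had 2 and 8 counts and a higher ratio of 2.19 ± 1.04, which did not pass (adjusted p = 0.0504 by the exact test). With counts of both strands its adjusted p was 0.0482 by that exact test and it was called higher, and under the 3 other settings that tested it the adjusted p ranged from 0.0506 to 0.0977.

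**Figure D4:**
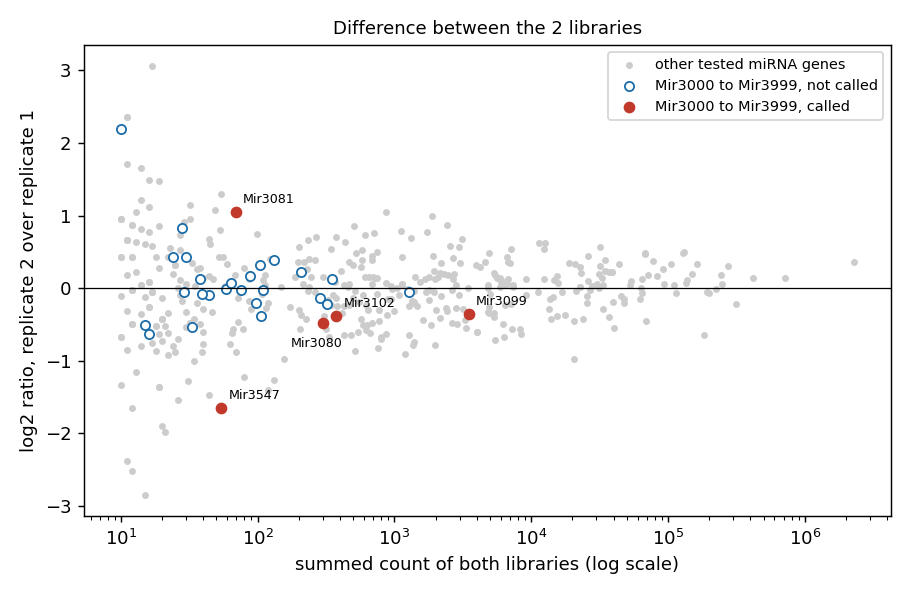
Log2 ratio of replicate 2 over replicate 1 after TMM scaling (vertical axis) against the summed count on a log scale (horizontal axis) for the 466 tested miRNA genes, with the 30 members marked. The 5 called members are filled, with Mir3081 above 0 and Mir3547, Mir3080, Mir3102 and Mir3099 below it.

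The tissue label was checked with miRNAs of defined cell types. Of 8 measured neural genes (of 9 listed: Mir9, Mir124a and Mir128 genes and Mir137), 7 were detected, from 1.77 to 12348 CPM. The 8 summed to 19404 CPM in replicate 1 and 18497 CPM in replicate 2, mostly from Mir137, Mir128-1 and Mir128-2. Mir124a-1, Mir124a-2 and Mir124a-3 had means of only 4.27, 1.77 and 1.07 CPM, and Mir9-2 3.62 CPM. Reads that fit several copies of a gene are totalled apart, so these can be undercounted. Of 7 genes of endothelial, erythroid, myeloid, hepatic and muscle cells, 6 were detected, with summed levels of 17105 and 19463 CPM, nearly all from endothelial Mir126a. Hepatic Mir122 was at 81.4 ± 23.3 CPM, and of the muscle genes Mir206 had 95 and 105 counts and Mir133a-1 none. Mir133a-1 can be undercounted in the same way as the Mir124a genes, so its lack of counts sets no limit. The part of these other cells in the members' levels was not tested.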

How the data were processed

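MicroRNA sequencing of 2 forebrain libraries (replicates 1 and 2 by the labels' numbers) was analysed from the deposited raw read counts per gene, which the authors made on mm10 with GENCODE M4, per the deposited file descriptions. For the aligner, counter and trimming, no tool or version is given in the sources used here. Each table has a count column without regard to strand and 1 per strand. The column with the larger total was read as the gene strand. The rows of unassigned reads stayed out of totals and tests.

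Members, positions, hosts and hairpins came from GENCODE M21 (GRCm38, the assembly of mm10), mature sequences from RefSeq GRCm38.p6. Members and lists were chosen with earlier results of these data known. Genes were named by rule: every detected member (5 or more counts in each library) and every member with an antisense miRNA gene or with at least 10 opposite-strand reads in both libraries, plus others singled out after their values were seen (among them Mir3063, Mir3092, Mir3095 and the Mir3470 to Mir3473 genes). CPM used gene-strand totals. Log2 ratios added 0.5 to each count. The exact binomial test used SciPy 1.17.1, TMM from edgeR 4.0.16 and, as an alternative, size factors from DESeq2 1.42.0, under R 4.3.3, with Benjamini-Hochberg adjustment over all tested genes. It was tested on simulated data, split binomially between libraries as the test itself assumes. Apart from folds set for some genes, these held no further spread between libraries, so calls under such spread were not examined. With a single group, edgeR's quasi-likelihood test could not be run. Folding used ViennaRNA 2.7.2.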

Additional observations from a re-analysis of the deposited data

Results flagged for a closer look

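Reads on the strand opposite to a member lie outside the gene-strand counts used above, and 2 members had more of them than the 3 counts taken as the limit of a count of 0. The strand opposite to Mir3074-1, which holds Mir24-1, had 40 reads in replicate 1 and 29 in replicate 2. These can undercount Mir24-1, as reads that also fit Mir24-2 are totalled apart. The strand opposite to Mir3086, in an intron of Hspa12a with no annotated miRNA gene on that strand, had 6 reads in replicate 1 and 0 in replicate 2, beside 17 and 12 gene-strand counts.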

How the results depend on the processing

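The members' share of counts (0.0856%) was 0.0483% without Mir3099, 0.0321% of all reads with unassigned ones included, and 0.0756% to 0.0956% with 1 library left out. Detection (29 members) was 50 with at least 1 count in either library and was 27 with at least 10 in both, and 31 to 35 with 1 library left out. The median log2(CPM + 1) of 0.75 was 0.24 on the scale log2(CPM + 0.5), 2.04 over the members with a count, and 0.78 to 0.92 with 1 library left out. Calls between the libraries numbered 5 or 6 under each of the 5 alternatives, always with the 5 of the main setting among them. The sixth was Mir3074-1 with unscaled totals and Mir3095 with counts of both strands (adjusted p = 0.0482). Of 29 detected members, 3 changed the sign of a ratio near 0 with unscaled totals: Mir3059 at -0.014, Mir3075 at -0.074 and Mir3076 at -0.014. Mir3074-1 then passed the threshold at -0.20. The other 3 alternatives changed no direction or call of these 29. Fewer than 100 summed counts limit 18 of the 30 tested members. No paired analysis was possible because both libraries form a single group, and a comparison of 2 libraries cannot be made with 1 left out.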
